A study of Mus musculus with 8 samples.

Results

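The 9 genes described here encode proteins that sense or respond to mechanical load in cardiac muscle: Ankrd1, Ankrd2, Ankrd23, Csrp3, Tcap, Fhl1, Fhl2, Itgb1bp2 and Des. They were taken by gene symbol from a table of read counts for 24516 symbols, without use of their values, and all 9 were found and were abundant enough to be tested among 15075 genes. The measurements are bulk RNA sequencing of whole mouse hearts at postnatal day 40, from littermates, in a study of a conserved enhancer of Actn2, the gene of the Z-disc protein alpha-actinin-2. The genotypes compared were 3 hearts homozygous for a CRISPR/Cas9 deletion of the enhancer, 3 hearts heterozygous for it, and 2 wild type hearts. The labels give no strain or sex, and nothing that tells whether the deletion came from 1 founder.

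In a cardiomyocyte the Z-disc anchors actin filaments, and the giant protein titin spans from there to the middle of the sarcomere and acts as a spring. Several proteins bound to titin, to the Z-disc or to the costamere, where the sarcomere is tied to integrins in the cell membrane, also travel to the nucleus or feed signalling pathways when the muscle is stretched. Ankrd1, Ankrd2 and Ankrd23 are the muscle ankyrin repeat proteins, which bind the spring region of titin, and Ankrd1 transcription is a widely used readout of haemodynamic load. Csrp3 (muscle LIM protein) and Tcap (telethonin) sit at the Z-disc, where Tcap caps the end of titin. Fhl1 and Fhl2 are four-and-a-half-LIM-domain proteins of the sarcomere, Itgb1bp2 (melusin) binds the tail of the beta-1 integrin, and Des (desmin) forms the intermediate filaments that link Z-discs to one another and to the membrane.

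Total counts per library were between 22230090 and 55902737, and levels are given as CPM, read counts divided by a library size that was scaled by the trimmed mean of M values (TMM). A difference is said to be called where its adjusted p was under 0.05, in a quasi-likelihood test by edgeR corrected by the Benjamini-Hochberg method over all genes tested. The labels tie the hearts to a single litter and name no separate dissection or library batches, so p-values measure the spread between these 8 hearts. In a principal component analysis of 1000 variable genes, wild type 2 had a first-component score of 61.41 and wild type 1 of 10.83, while the 6 hearts with the deletion lay between -14.22 and -7.872. Every comparison with wild type rests on these 2 hearts, and where 1 is left out the other is assumed to vary like the remaining groups. Actn2 had 2115, 1610 and 1790 CPM in homozygous hearts, 1693, 1546 and 1638 CPM in heterozygous hearts, and 2186 and 2702 CPM in wild type hearts. Its level was below both wild type hearts in all 6 hearts with the deletion, and the difference passed the test in heterozygous hearts (log2 fold change -0.59, edgeR adjusted p = 0.0193) but not in homozygous hearts (-0.41, adjusted p = 0.0771). Neither outcome was firm for Actn2. The heterozygous call was lost without wild type 2 (-0.40, adjusted p = 0.128), without heterozygous 2 (adjusted p = 0.0725) or 3 (adjusted p = 0.0595), with only the groups compared (adjusted p = 0.0536), and with the correction for transcript properties described below (-0.34, adjusted p = 0.153). The homozygous difference passed with DESeq2 (adjusted p = 0.0348), with a filter of at least 10 CPM in 2 libraries (adjusted p = 0.0383) and without wild type 1 (-0.55, adjusted p = 0.02).

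Coordinates of the members are from GENCODE vM21 (mm10). Ankrd1 (chromosome 19, 36111961 to 36120099, minus strand) and Ankrd2 (chromosome 19, 42036000 to 42045110, plus strand) lie on the same chromosome, and Ankrd23 is at 36530188 to 36536883 on the minus strand of chromosome 1. Chromosome 1 also carries Fhl2 (43123074 to 43196984, minus strand) and Des (75360329 to 75368579, plus strand). Csrp3 is on chromosome 7 (48830398 to 48848033, minus strand), Tcap on chromosome 11 (98383811 to 98384953, plus strand), and Fhl1 (56731787 to 56793346) and Itgb1bp2 (101449088 to 101453541) are on the plus strand of chromosome X. No member shares chromosome 13 with Actn2 (12269426 to 12340760, minus strand), the gene for which the enhancer is named.

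The members ranged widely in level. Per kilobase of transcript, Tcap was the most abundant in homozygous hearts (1600 ± 281 CPM per kb, SD, n = 3) and in wild type hearts (3730 ± 1410, n = 2). In homozygous hearts Csrp3 (1510 ± 261 CPM per kb) and Fhl2 (1270 ± 123 CPM per kb) followed, and the ranges of neighbours in this leading trio overlapped. Des came next at 655 ± 44 CPM per kb, apart from the members on either side. Ankrd23 at 407 ± 57.6 and Ankrd1 at 310 ± 56.8 CPM per kb overlapped each other, and Itgb1bp2 (158 ± 15 CPM per kb) and Fhl1 (63.7 ± 4.89 CPM per kb) were lower, without overlap. Ankrd2, in mice mainly a gene of skeletal muscle, was lowest at 0.374 ± 0.327 CPM per kb. In heterozygous hearts Csrp3 had the highest mean, 2060 ± 1320 CPM per kb, ahead of Tcap at 1730 ± 649, and the ranges of these neighbours overlapped. In wild type hearts the order was Tcap, Csrp3, Fhl2, Des, Ankrd1, Ankrd23, Itgb1bp2, Fhl1 and Ankrd2, and the only neighbours whose ranges overlapped were Ankrd1 and Ankrd23. The share of all counts taken by the 9 genes was 0.891%, 0.788% and 0.901% in homozygous hearts, 1.43%, 0.811% and 0.76% in heterozygous hearts, and 1.04% and 1.23% in wild type hearts.

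**Figure D1:**
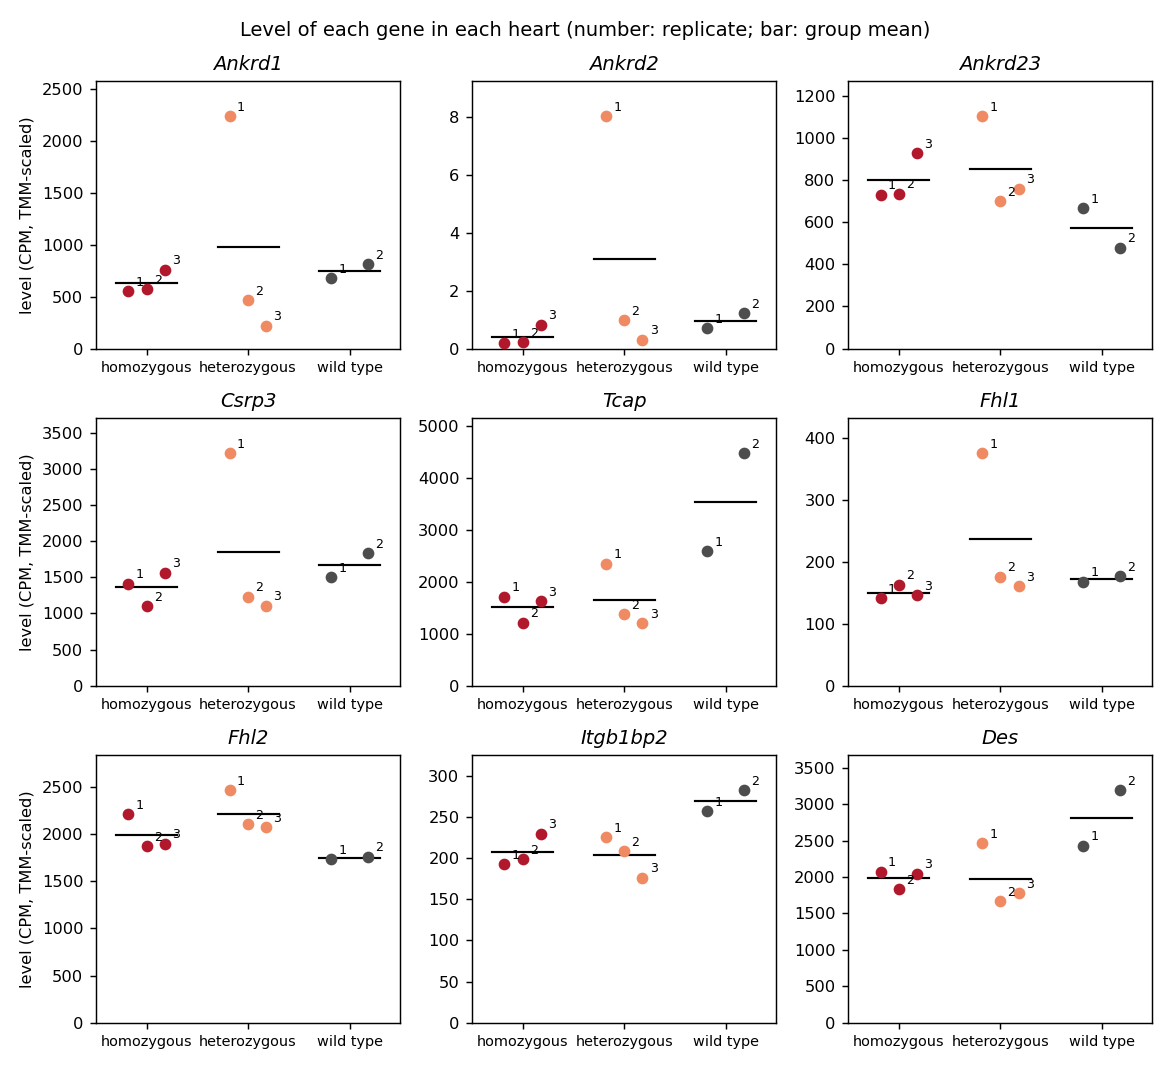
Level of each of the 9 genes in every heart, in TMM-scaled CPM on linear axes. Homozygous, heterozygous and wild type hearts run from left to right, points are hearts and bars are group means. Heterozygous heart 1 stands above every other heart for Ankrd1 (2238 CPM), Ankrd2 (8.029 CPM), Csrp3 (3219 CPM) and Fhl1 (376.2 CPM), and Tcap lies lower in all 6 hearts with the deletion than in both wild type hearts.

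Set against wild type, homozygous hearts had lower Tcap and no other called member. Tcap had 1710, 1211 and 1621 CPM in homozygous hearts, 2346, 1376 and 1206 CPM in heterozygous hearts, and 2587 and 4476 CPM in wild type hearts. All 6 hearts with the deletion were below both wild type hearts, and wild type 2 had the highest level. The fold was 0.429 in homozygous hearts (log2 fold change -1.22, SE 0.310, edgeR adjusted p = 0.0172) and 0.465 in heterozygous hearts (-1.10, SE 0.310, adjusted p = 0.0257). Thus 1 of 9 members was called lower and 0 higher in each comparison, where 12.4% of all genes were called lower and 15.3% higher in homozygous hearts, and 12.8% lower and 15.2% higher in heterozygous hearts. The members' count is no larger than these background shares would give. Of the 9 members 3 had an unadjusted p under 0.05 in homozygous hearts and 5 in heterozygous hearts, where 40.2% of all genes did so in each. DESeq2 called 3 members in homozygous hearts, against 32.2% of all genes, and 5 in heterozygous hearts, against 32.7%. The median log2 fold change of the members was -0.29 in homozygous and 0.34 in heterozygous hearts, against -0.03 over all genes in both.

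The Tcap result depends on single libraries and on transcript properties. Without wild type 2 the log2 fold change was -0.74 in homozygous hearts (edgeR adjusted p = 0.253) and -0.63 in heterozygous hearts (adjusted p = 0.327). The call was also lost in homozygous hearts without homozygous 2 (adjusted p = 0.0569), and in heterozygous hearts without heterozygous 2 (adjusted p = 0.0865), without heterozygous 3 (adjusted p = 0.0792) or when only heterozygous and wild type hearts were fitted (adjusted p = 0.0542). Its transcript is short (948 bases) and rich in GC (61.3%), against medians of 3023 bases and 50.6% over the genes tested. Genes with such properties as a class were higher in wild type hearts: a trend fitted in each library on transcript length, 3' untranslated length and GC content assigned Tcap values of -0.25 to -0.11 on the log2 scale in the 6 hearts with the deletion, and 0.35 and 0.66 in wild type 1 and 2. With that trend taken out, Tcap had log2 fold changes of -0.52 in homozygous (adjusted p = 0.252) and -0.40 in heterozygous hearts (adjusted p = 0.389).

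Des and Itgb1bp2 had lower means than wild type in both deletion groups but did not pass the test. Des had 2072, 1829 and 2046 CPM in homozygous hearts, 2461, 1672 and 1780 CPM in heterozygous hearts, and 2429 and 3191 CPM in wild type hearts. Homozygous hearts lay below both wild type hearts, whereas heterozygous 1 fell between them, and the log2 fold changes were -0.50 (SE 0.191, edgeR adjusted p = 0.0731) in homozygous and -0.51 (SE 0.191, adjusted p = 0.0686) in heterozygous hearts. Without wild type 2 they were -0.26 in homozygous and -0.27 in heterozygous hearts. Without heterozygous 1 both passed, at -0.48 in homozygous hearts (adjusted p = 0.046) and -0.68 in heterozygous hearts (adjusted p = 0.0205), in a fit that called 11.7% of all genes lower in homozygous and 9.91% in heterozygous hearts. Without wild type 1 both passed too, at -0.68 in homozygous hearts (adjusted p = 0.0186) and -0.69 in heterozygous hearts (adjusted p = 0.0175), and 16.6% of all genes were called lower in each. Itgb1bp2 had 192.9, 198.6 and 229.6 CPM in homozygous hearts, 225.2, 208.5 and 176.4 CPM in heterozygous hearts, and 256.8 and 282.5 CPM in wild type hearts. All 6 hearts with the deletion were lower than both wild type hearts, with log2 fold changes of -0.38 in homozygous hearts (SE 0.143, edgeR adjusted p = 0.0701) and -0.41 in heterozygous hearts (SE 0.143, adjusted p = 0.0552). Without wild type 1 these passed, at -0.44 (adjusted p = 0.0499) in homozygous and -0.47 (adjusted p = 0.0396) in heterozygous hearts. With the property trend taken out, Itgb1bp2 was at -0.06 in homozygous and -0.12 in heterozygous hearts, and Des at -0.27 in homozygous and -0.24 in heterozygous hearts. Counts of Des could hold reads from the antisense gene Gm15179, which shares 220 exonic bases with it, but Gm15179 had between 19 and 36 counts per library.

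Ankrd23 and Fhl2 lay the other way. Ankrd23 had 731.1, 736.4 and 929.6 CPM in homozygous hearts, 1106, 699.4 and 759.2 CPM in heterozygous hearts, and 667.8 and 479.7 CPM in wild type hearts. All 6 hearts with the deletion were above both wild type hearts, by a log2 fold change of 0.48 (SE 0.226, edgeR adjusted p = 0.141) in homozygous and 0.58 (SE 0.226, adjusted p = 0.0821) in heterozygous hearts. Fhl2, which also acts as a transcriptional cofactor, had 2213, 1869 and 1896 CPM in homozygous hearts, 2465, 2107 and 2075 CPM in heterozygous hearts, and 1732 and 1758 CPM in wild type hearts. Again no heart with the deletion overlapped wild type, and the log2 fold changes were 0.19 in homozygous (SE 0.145, edgeR adjusted p = 0.356) and 0.34 in heterozygous hearts (SE 0.146, adjusted p = 0.103). With the property trend taken out both genes passed the test: Ankrd23 at 0.87 in homozygous (adjusted p = 0.0325) and 0.99 in heterozygous hearts (adjusted p = 0.0211), and Fhl2 at 0.51 in homozygous (adjusted p = 0.0229) and 0.65 in heterozygous hearts (adjusted p = 0.00914). That fit called these 2 members higher and 0 lower in each comparison, against 8.57% of all genes higher and 5.73% lower in homozygous hearts, and 7.72% higher and 5.5% lower in heterozygous hearts. When wild type 2 was also left out, Fhl2 kept its call in heterozygous hearts (0.63, adjusted p = 0.0429), and Fhl2 in homozygous hearts (adjusted p = 0.0975) and Ankrd23 in homozygous (adjusted p = 0.23) and heterozygous hearts (adjusted p = 0.165) did not. Counts of Ankrd23 could include reads of Gm42417, a gene on the same strand whose exons share 2109 bases with it and which has no row in the count table.

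Counting hearts alone, 2 members lay above and 4 below both wild type hearts in homozygous hearts, and 2 above and 2 below in heterozygous hearts. The shares of all genes without overlap were 27.6% above and 27.2% below in homozygous hearts, and 25.7% above and 25.6% below in heterozygous hearts. The fourth member below wild type in homozygous hearts, beside Tcap, Des and Itgb1bp2, was Fhl1.

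**Figure D2:**
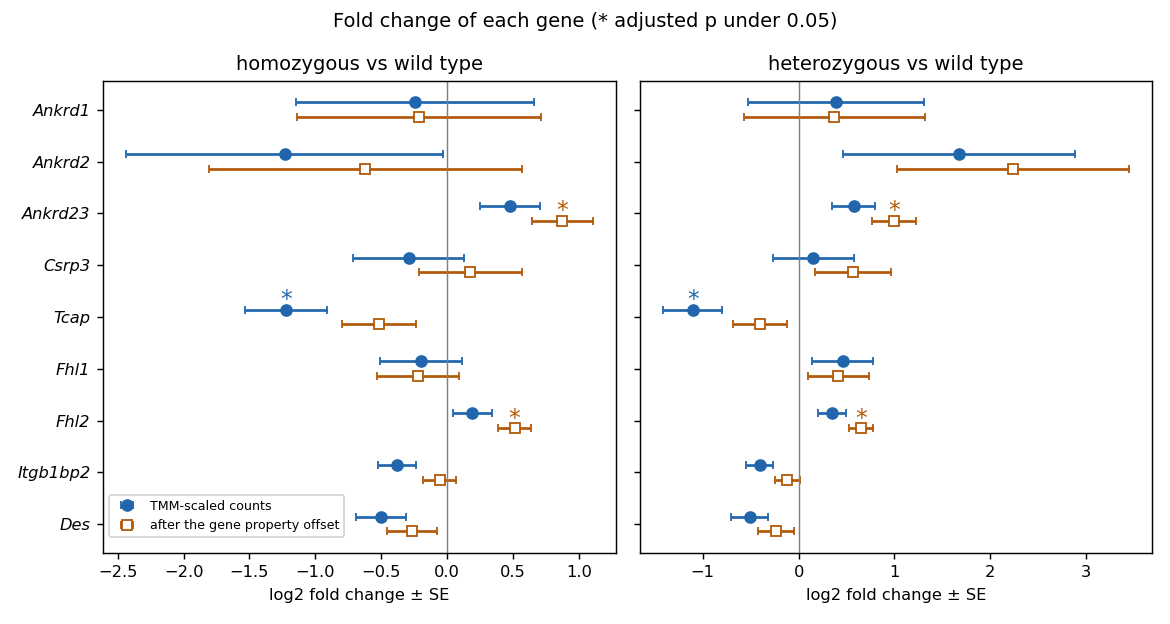
Log2 fold change of each member, with bars of ± SE, in homozygous and heterozygous hearts against wild type. Values are from the fit as deposited and with the trend on transcript length, 3' untranslated length and GC content taken out. In homozygous hearts Tcap is at -1.22 as deposited and at -0.52 with the trend taken out, and Ankrd23 at 0.48 and at 0.87.

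The largest differences among the members were between hearts of 1 genotype. Ankrd1 had 2238, 462.5 and 218.3 CPM in heterozygous hearts 1, 2 and 3, while homozygous hearts had 552.1, 569.4 and 758.9 CPM and wild type hearts had 674.9 and 813.4 CPM. Heterozygous 1 was 6.57 times the mean of the other heterozygous hearts, and heterozygous 3 had the lowest level of the 8. Csrp3 had 1412, 1103 and 1564 CPM in homozygous hearts, 3219, 1233 and 1109 CPM in heterozygous hearts, and 1499 and 1832 CPM in wild type hearts. Apart from heterozygous 1, all hearts lay between 1103 and 1832 CPM, and the genotypes overlapped. Fhl1 had 141.2, 163.1 and 146.0 CPM in homozygous hearts, 376.2, 176.0 and 160.6 CPM in heterozygous hearts, and 168.1 and 176.7 CPM in wild type hearts. Here too heterozygous 1 alone stood apart, at 2.24 times the mean of the other heterozygous hearts, and for Csrp3 this ratio was 2.75. Ankrd2 had 6, 13 and 28 counts in homozygous hearts, 177, 31 and 9 counts in heterozygous hearts, and 18 and 35 counts in wild type hearts. Its 8.029 CPM in heterozygous 1 compares with 0.9703 and 0.3078 CPM in the other heterozygous hearts, 0.1832 to 0.8261 CPM in homozygous hearts, and 0.6939 and 1.213 CPM in wild type hearts. At this depth its level elsewhere rests on a few reads.

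In all, 6 of 9 members had their highest level in heterozygous 1 (Ankrd1, Ankrd2, Ankrd23, Csrp3, Fhl1 and Fhl2), against 13.1% of all genes. The other members, Tcap, Itgb1bp2 and Des, were highest in wild type 2, where 30.1% of all genes peaked. Ankrd1, Ankrd2, Csrp3 and Fhl1 exceeded the next heart by at least 1.5 times, a limit set after their values were seen, and 1.05% of all genes did so in heterozygous 1. Ordered by that ratio among 13107 genes with a mean of at least 1 CPM over the other 7 hearts, Ankrd1 was number 1, Fhl1 number 21 and Csrp3 number 34, and Ankrd2 was below that level. No test is attached, because the pattern is that of 1 heart.

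**Figure D3:**
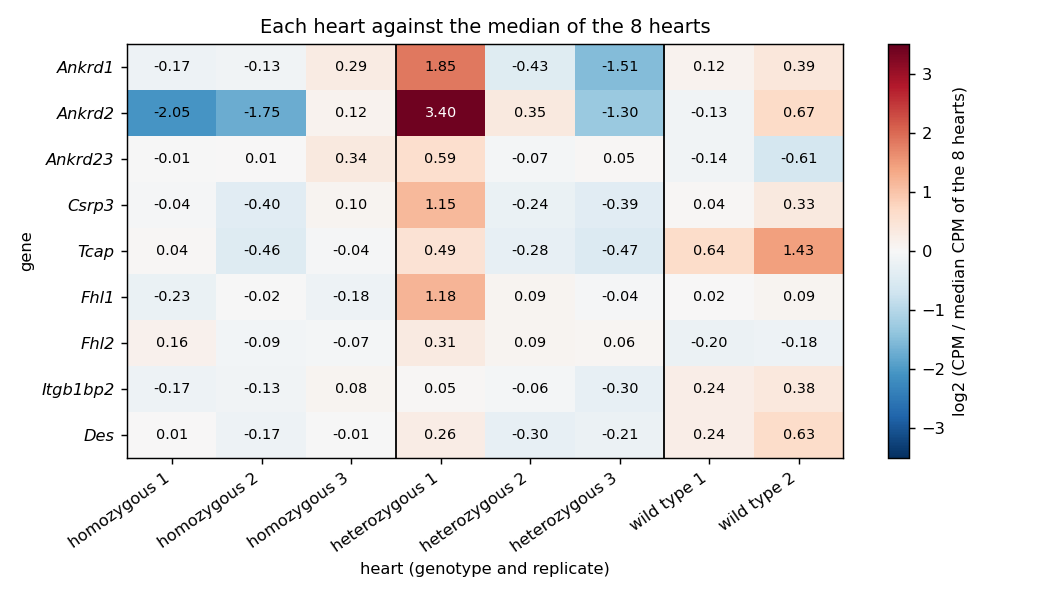
Log2 of each gene's CPM over its median across the 8 hearts, with hearts as columns (homozygous, heterozygous, wild type) and genes as rows. The column of heterozygous 1 holds the highest value for 6 of the 9 genes, and wild type 2 for Tcap, Itgb1bp2 and Des.

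The promoter windows of the 4 genes that stood highest together in heterozygous 1 are shown because load-responsive muscle transcription is known to act through short motifs near the start site. The windows run from 250 bases before to 50 after the RefSeq start (assembly GRCm38.p6), 5' to 3' on the gene's strand. Capitals mark the MCAT motif GGAATG, bound by TEAD factors, and the CArG box, bound by SRF. The Ankrd1 window is chr19:36119795-36120094, minus strand. That of Ankrd2 is chr19:42035777-42036076, plus strand. For Csrp3 the window is chr7:48848002-48848301, minus strand, the upstream of 2 listed. For Fhl1 it is chrX:56779433-56779732, plus strand, 1 of 2 listed.
Ankrd1: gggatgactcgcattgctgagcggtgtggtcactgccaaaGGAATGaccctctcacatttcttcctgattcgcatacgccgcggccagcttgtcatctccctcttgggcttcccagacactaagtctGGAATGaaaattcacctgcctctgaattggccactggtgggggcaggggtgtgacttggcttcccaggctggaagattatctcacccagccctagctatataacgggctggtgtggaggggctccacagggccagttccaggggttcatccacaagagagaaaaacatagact
Ankrd2: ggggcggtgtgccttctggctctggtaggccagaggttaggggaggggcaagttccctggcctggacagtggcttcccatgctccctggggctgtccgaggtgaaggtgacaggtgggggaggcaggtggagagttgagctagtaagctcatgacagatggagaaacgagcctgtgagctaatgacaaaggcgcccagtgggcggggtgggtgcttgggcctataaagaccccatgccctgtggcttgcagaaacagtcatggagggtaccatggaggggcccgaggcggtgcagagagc
Csrp3: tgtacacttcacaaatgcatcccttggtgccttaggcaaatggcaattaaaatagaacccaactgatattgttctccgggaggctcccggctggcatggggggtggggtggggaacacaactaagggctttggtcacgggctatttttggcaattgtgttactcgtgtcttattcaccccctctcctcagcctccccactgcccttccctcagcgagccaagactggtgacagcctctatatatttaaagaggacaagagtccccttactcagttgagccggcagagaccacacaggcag
Fhl1: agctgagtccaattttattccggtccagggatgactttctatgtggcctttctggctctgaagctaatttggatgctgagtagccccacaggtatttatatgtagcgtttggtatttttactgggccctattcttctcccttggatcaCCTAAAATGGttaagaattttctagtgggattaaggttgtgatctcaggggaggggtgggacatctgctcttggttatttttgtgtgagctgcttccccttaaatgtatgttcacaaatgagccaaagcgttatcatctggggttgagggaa

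Ankrd1 holds 2 MCAT motifs, 210 and 123 bases before the start, and 1.36% of the 32851 windows of the same length in the table hold 2 or more on either strand, while 14.7% hold at least 1. Fhl1 holds a CArG box 102 bases before the start, and 1.63% of all windows hold one, while its other listed window, chrX:56786277-56786576, holds none. Neither motif occurs in the Ankrd2 and Csrp3 windows. E-boxes (CANNTG, not marked, found in 72.3% of windows) number 1 in the Ankrd1 window, 3 in Ankrd2, 5 in Csrp3 and 3 in the Fhl1 window shown. The 4 windows thus share no MCAT motif or CArG box, which says only that neither sequence is in all of them. Among the other members with a window, an MCAT motif occurs in both windows of Ankrd23 and a CArG box in both windows of Fhl2, whose first window also holds a MEF2 motif (3.19% of all windows) 31 bases before the start. Promoters of 7 of the 9 members were matched, and Tcap and Itgb1bp2 were not.

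With heterozygous 1 so far from the others, the heterozygous means of Ankrd1 (972.9 ± 1100 CPM, SD, n = 3), Csrp3 (1854 ± 1180 CPM) and Fhl1 (237.6 ± 120 CPM) lie between that heart and the rest of the group. Their log2 fold changes against wild type were 0.39 for Ankrd1 (SE 0.917, edgeR adjusted p = 0.792), 0.15 for Csrp3 (SE 0.423, adjusted p = 0.818) and 0.46 for Fhl1 (SE 0.318, adjusted p = 0.312). Ankrd2 had 1.68 (SE 1.21, adjusted p = 0.336). Without heterozygous 1 the sign turned for all 4, to -1.10 for Ankrd1 (SE 0.32, adjusted p = 0.0362), -0.48 for Csrp3 (adjusted p = 0.0995), -0.0074 for Fhl1 (adjusted p = 0.974) and -0.54 for Ankrd2 (adjusted p = 0.704). Ankrd1 passed the test in that fit, in which 9.91% of all genes were called lower, but not when wild type 2 was left out as well (-0.95, adjusted p = 0.303). In homozygous hearts the log2 fold changes were -0.25 for Ankrd1 (SE 0.903, adjusted p = 0.868), -0.29 for Csrp3 (adjusted p = 0.643), -0.20 for Fhl1 (adjusted p = 0.675) and -1.23 for Ankrd2 (adjusted p = 0.481).

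Between homozygous and heterozygous hearts no member was called, and edgeR called 0% of all genes (411 genes, 2.73%, had an unadjusted p under 0.05, DESeq2 called 3 and limma-voom 1). Of the members, Ankrd2 and Fhl1 had an unadjusted p under 0.05, at 0.0268 and 0.0426 in edgeR's test over all genes. No member's groups were free of overlap, while 6.19% of all genes lay wholly higher and 5.15% wholly lower in homozygous hearts. The intervals bound the difference for some members: the 95% interval of the log2 fold change was -0.26 to 0.31 for Itgb1bp2, -0.37 to 0.39 for Des, -0.44 to 0.13 for Fhl2 and -0.75 to 0.51 for Tcap. For Ankrd1 it ran from -2.62 to 1.35, so the data set no useful limit there.

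Markers of other cell types were examined, since in whole hearts fewer cells of a type and less RNA per cell cannot be told apart. Ventricular cardiomyocyte markers (10 of 10 measured) summed to 68830 to 78450 CPM in homozygous hearts, 69590 to 74250 CPM in heterozygous hearts, and 83710 and 96190 CPM in wild type hearts, which matches the labelled tissue in all 8. Marker calls are to be read beside the shares of all genes called. These were 15.3% higher and 12.4% lower in homozygous hearts, and 15.2% higher and 12.8% lower in heterozygous hearts. Within the ventricular list the calls went both ways. In homozygous hearts 2 were called higher (Ryr2 and Pln) and 2 lower (Myl2 and Tnni3). In heterozygous hearts 2 were called higher (Ryr2 and Pln) and 3 lower (Myl2, Myl3 and Tnni3). Skeletal muscle, which also expresses Ankrd2, Csrp3, Tcap, Fhl1 and Des, had markers summing to 2996 to 3325 CPM in homozygous hearts, 3737, 2800 and 2712 CPM in heterozygous hearts, and 4200 and 3961 CPM in wild type hearts. Most of that sum was Ckm, Eno3 and Acta1, at 1140, 1440 and 1083 CPM in heterozygous 1. Of the 13 skeletal muscle markers tested, 2 peaked in heterozygous 1 and 5 in wild type 2. Those 2 were Acta1, at 197.8 and 109.2 CPM in the other heterozygous hearts, and Myl1, at 27.99 CPM and at most 10.78 CPM elsewhere. The defining fast myosin Myh4 was at 0 counts in every library, and Myh1 and Myh2 had 4 and 6 counts over all libraries. In every library 7 of the 18 markers were under 1 CPM. Macrophage markers summed to 561.1 to 579.9 CPM in homozygous hearts, 804.5, 554.1 and 627.2 CPM in heterozygous hearts, and 633 and 535.1 CPM in wild type hearts, and 6 of 10 peaked in heterozygous 1. Smooth muscle and pericyte markers (Des among them) summed to 3751 to 3958 CPM in homozygous hearts, 3513 to 4250 CPM in heterozygous hearts, and 4257 and 5173 CPM in wild type hearts. Of that sum the member Des alone gave 1829 to 2072 CPM in homozygous hearts and 1672 to 2461 CPM in heterozygous hearts. In wild type hearts Des gave 2429 and 3191 CPM, so the sum is not a readout separate from Des. Fibroblast markers summed to 2478 to 3309 CPM in homozygous hearts, 2981 to 3553 CPM in heterozygous hearts, and 5047 and 4151 CPM in wild type hearts. Endothelial markers summed to 1756 to 2108 CPM in homozygous hearts, 1771 to 2258 CPM in heterozygous hearts, and 2611 and 2879 CPM in wild type hearts. Among the 12 smooth muscle and pericyte markers, 1 was called higher and 4 lower in homozygous hearts, and 1 higher and 6 lower in heterozygous hearts. The smooth muscle myosin Myh11 had 37, 29.65 and 27.82 CPM in homozygous hearts, 32.43, 34.77 and 18.77 CPM in heterozygous hearts, and 70.31 and 161.9 CPM in wild type hearts. Its log2 fold changes were -1.88 in homozygous (edgeR adjusted p = 0.00612) and -2.02 in heterozygous hearts (adjusted p = 0.00439). Tagln, Cnn1 and Lmod1, of the smooth muscle contractile apparatus, were called lower in both as well, Cnn1 by -3.51 in homozygous and -3.93 in heterozygous hearts. Atrial markers summed to 164.4 to 417.9 CPM in homozygous hearts, 479.5, 363.1 and 148.7 CPM in heterozygous hearts, and 387.9 and 648.5 CPM in wild type hearts, and most of that sum was Nppa, which was not called. Of 8 atrial markers tested, 5 were called lower and 1 higher in each comparison, with median log2 fold changes of -1.91 in homozygous and -1.87 in heterozygous hearts. The atrial light chain Myl7 had 0.3663, 0.2788 and 0.177 CPM in homozygous hearts, 0.2722, 0.5321 and 0.6839 CPM in heterozygous hearts, and 6.592 and 14.24 CPM in wild type hearts. It was lower in both (edgeR adjusted p = 0.000157 in homozygous and 0.000305 in heterozygous hearts), as were Myl4, Dkk3 and Sln, and Sln was at 0.1045 CPM or at 0 in all 6 hearts with the deletion, against 2.93 and 5.266 CPM in wild type hearts. Myl7, Myl4, Dkk3, Sln, Myh11, Tagln, Cnn1 and Lmod1 were higher in both wild type hearts than in the other 6. Other genes of the same lists lay the other way. Tbx5, of the atrial list, had 18 to 19.8 CPM in homozygous hearts and 14.3 and 10.4 CPM in wild type hearts. Abcc9, of the smooth muscle and pericyte list, had 425 to 469 CPM in homozygous hearts and 236 and 188 CPM in wild type hearts. Of 10 endothelial markers 4 were called lower in homozygous and 3 in heterozygous hearts, and of 5 adipocyte markers tested 3 were called lower in each, with the highest sum in wild type 2. The part of these marker differences in the members' levels was not tested.

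The surrounding load-sensing machinery was described through 7 gene lists. The counts of every list are to be read beside the shares of all genes called. These were 15.3% higher and 12.4% lower in homozygous hearts, and 15.2% higher and 12.8% lower in heterozygous hearts. With the property trend taken out they were 8.57% higher and 5.73% lower in homozygous hearts, and 7.72% higher and 5.5% lower in heterozygous hearts. Among 31 measured titin and Z-disc partners, 8 were called higher and 6 lower in homozygous hearts, and 9 higher and 7 lower in heterozygous hearts, with a median log2 fold change of -0.02 in both. With the property trend taken out, 3 were higher and 1 lower of 30 in each comparison. Titin itself (Ttn) had 9296, 10200 and 10490 CPM in homozygous hearts, 9152, 9599 and 9876 CPM in heterozygous hearts, and 5196 and 6055 CPM in wild type hearts. It was higher in all 6 hearts with the deletion (log2 fold change 0.83 in homozygous, edgeR adjusted p = 0.00276, and 0.76 in heterozygous, adjusted p = 0.00372). Its transcript is very long, and with the property trend taken out the values were -0.15 in homozygous and -0.44 in heterozygous hearts and neither passed. The Z-disc protein Synpo2 was higher in both (1.48 in homozygous hearts, adjusted p = 0.000134, and 1.65 in heterozygous hearts, adjusted p = 7.2e-05) and the LIM protein Pdlim3 lower (-1.61 in homozygous hearts, adjusted p = 0.00136, and -1.12 in heterozygous hearts, adjusted p = 0.00699), and both kept their calls with the trend taken out, although Pdlim3 in heterozygous hearts lost its call without wild type 2 (-0.83, adjusted p = 0.0705). Cryab, the small heat shock protein that guards desmin, was lower (-0.86 in homozygous hearts, adjusted p = 0.00368, and -0.75 in heterozygous hearts, adjusted p = 0.00675) and lost both calls under that correction. The titin-associated ubiquitin ligase Trim55 was higher in both (1.74 in homozygous hearts, adjusted p = 0.0177, and 1.71 in heterozygous hearts, adjusted p = 0.0183). In heterozygous 1 the list peaked for 12 of 31 genes; Xirp2, named after its values were seen, had 2647 CPM there and at most 1118 CPM in any other heart.

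LIM-domain relatives of Csrp3, Fhl1 and Fhl2 (25 measured) were called lower in 9 and higher in 3 cases in homozygous hearts, and in 8 and 3 cases in heterozygous hearts, with medians of -0.44 in homozygous and -0.21 in heterozygous hearts. Csrp2, a close relative of Csrp3, had 12.46, 14.43 and 14.07 CPM in homozygous hearts, 17.56, 16.03 and 14.47 CPM in heterozygous hearts, and 33.73 and 29.66 CPM in wild type hearts. It was lower by log2 fold changes of -1.21 in homozygous (edgeR adjusted p = 0.000568) and -0.99 in heterozygous hearts (adjusted p = 0.00142), and with the trend taken out the heterozygous call was lost (-0.50, adjusted p = 0.0594). With the property trend taken out, the lower calls of this list numbered 4 in homozygous hearts and 3 in heterozygous hearts. Intermediate filament genes beside Des (14 measured) split into 4 higher and 3 lower in homozygous hearts and 3 higher and 2 lower in heterozygous hearts, and with the trend taken out into 2 higher and 2 lower in homozygous and 2 higher and 1 lower in heterozygous hearts. The desmosomal linker Dsp (desmoplakin), which ties desmin filaments to cell junctions, had 1823, 1581 and 1836 CPM in homozygous hearts, 1564, 1581 and 1508 CPM in heterozygous hearts, and 914.9 and 575.6 CPM in wild type hearts. It was higher by log2 fold changes of 1.23 in homozygous (edgeR adjusted p = 0.00181) and 1.06 in heterozygous hearts (adjusted p = 0.00331), and all alternatives tried kept both calls. In the integrin adhesion complex, to which Itgb1bp2 binds, 5 genes were higher and 4 lower of 26 in each comparison, and 2 higher and 2 lower with the trend taken out. The adhesion adaptor Sorbs3 (vinexin) had the smallest p in homozygous hearts, at -1.01 (edgeR adjusted p = 0.000703), and had -0.99 in heterozygous hearts (adjusted p = 0.000764). The beta-1 integrin Itgb1, partner of Itgb1bp2, had 791.7, 776.6 and 799.4 CPM in homozygous hearts, 817.7, 894.7 and 706 CPM in heterozygous hearts, and 475.2 and 315.1 CPM in wild type hearts. This higher level (log2 fold change 0.998 in homozygous, adjusted p = 0.00395, and 1.03 in heterozygous, adjusted p = 0.00319) kept its calls with the trend taken out (0.69 in homozygous and 0.71 in heterozygous), though not without wild type 2 as well, while Itgb1bp2 lay below both wild type hearts in the same 6 hearts. Chordc1, the close relative of Itgb1bp2, was higher by 0.90 in homozygous (adjusted p = 0.000888) and 0.94 in heterozygous hearts (adjusted p = 0.000673). With the trend taken out it was not called, at 0.06 in homozygous and 0.07 in heterozygous hearts.

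Of the transcripts known to rise after stretch or pressure load, none was called higher. Among 31 measured, 0 were called higher and 7 lower in homozygous hearts, and 0 higher and 4 lower in heterozygous hearts, with medians of -0.37 in homozygous and -0.52 in heterozygous hearts, against -0.03 over all genes. With the property trend taken out, 1 was higher and 6 lower of 29 in homozygous hearts, and 0 higher and 5 lower in heterozygous hearts. Thrombospondin 1 (Thbs1) had 8.487, 16.55 and 10.36 CPM in homozygous hearts, 17.65, 15.87 and 16.79 CPM in heterozygous hearts, and 25.4 and 43.66 CPM in wild type hearts, a difference that passed in both (-1.54 in homozygous hearts, edgeR adjusted p = 0.00415, and -1.04 in heterozygous hearts, adjusted p = 0.0217). Its call in heterozygous hearts was lost without wild type 2 (-0.57, adjusted p = 0.249), heterozygous 2 (adjusted p = 0.0719) or heterozygous 3 (adjusted p = 0.0623). Tgfb1, the growth factor, was lower by log2 fold changes of -1.05 in homozygous (adjusted p = 0.00132) and -1.03 in heterozygous hearts (adjusted p = 0.0013). With the trend taken out it was at -0.56 in homozygous (adjusted p = 0.0299) and -0.53 in heterozygous hearts (adjusted p = 0.0368), and without wild type 2 as well neither passed (adjusted p = 0.253 in homozygous and 0.304 in heterozygous hearts). The matricellular gene Cyr61, a YAP target, was lower in heterozygous hearts (-1.18, adjusted p = 0.000407) and had -0.28 in homozygous hearts (adjusted p = 0.15), a difference between the deletion groups that did not pass (adjusted p = 0.164). Skeletal alpha-actin, Acta1, part of the fetal programme of loaded hearts and also named after its values were seen, had 306.1, 423.4 and 363.1 CPM in homozygous hearts, 1083, 197.8 and 109.2 CPM in heterozygous hearts, and 859.5 and 938.3 CPM in wild type hearts. It shared with Ankrd1 its highest level in heterozygous 1 and its lowest in heterozygous 3, and did not pass the test (-1.30 in homozygous hearts, adjusted p = 0.337, and -0.96 in heterozygous hearts, adjusted p = 0.481). Without heterozygous 1 it passed, at -1.28 in homozygous hearts (adjusted p = 0.00548) and -2.52 in heterozygous hearts (adjusted p = 0.000812). In heterozygous 1 the list peaked for 5 of 31 genes. The immediate early factor Atf3 was lower in homozygous hearts (-2.05, adjusted p = 0.00494, and -1.62, adjusted p = 0.0788, without wild type 2) and had -0.97 in heterozygous hearts (adjusted p = 0.0817).

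Among 18 stretch-gated channels, 0 were higher and 4 lower in homozygous hearts, and 1 higher and 4 lower in heterozygous hearts. With the trend taken out, 0 were higher and 1 lower in homozygous hearts, and 0 higher and 2 lower in heterozygous hearts. Trpv4, a calcium-permeable channel, was lower, with log2 fold changes of -1.15 in homozygous (edgeR adjusted p = 0.00161) and -0.80 in heterozygous hearts (adjusted p = 0.00818). Leaving out wild type 2 ended its heterozygous call (-0.46, adjusted p = 0.0979), and so did taking out the trend (adjusted p = 0.109). Regulators that read load onto transcription, of the Hippo, SRF and MEF2 pathways, held the most higher calls: 14 of 46 higher and 3 lower in homozygous hearts, and 14 higher and 4 lower in heterozygous hearts, with medians of 0.35 in homozygous and 0.29 in heterozygous hearts. The MCAT-binding factor Tead1 had 425.2, 356.7 and 374.6 CPM in homozygous hearts, 435.9, 365.9 and 407.4 CPM in heterozygous hearts, and 183.3 and 123.6 CPM in wild type hearts. All 6 hearts with the deletion were higher (1.33 in homozygous hearts, adjusted p = 0.000927, and 1.39 in heterozygous hearts, adjusted p = 0.000689), whereas Ankrd1, whose window holds 2 MCAT motifs, overlapped between genotypes. The SRF coactivator Myocd (1.33 in homozygous hearts, adjusted p = 0.00102, and 1.48 in heterozygous hearts, adjusted p = 0.000633) and the Hippo kinase cofactor Mob1b (2.16 in homozygous hearts, adjusted p = 0.000128, and 2.22 in heterozygous hearts, adjusted p = 0.000109) were also higher. With the trend taken out, 13 of 43 regulators were higher in homozygous and 9 in heterozygous hearts, and Tead1, Myocd and Mob1b kept their calls in both comparisons; Tead1 lost them when wild type 2 was left out as well.

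**Figure D4:**
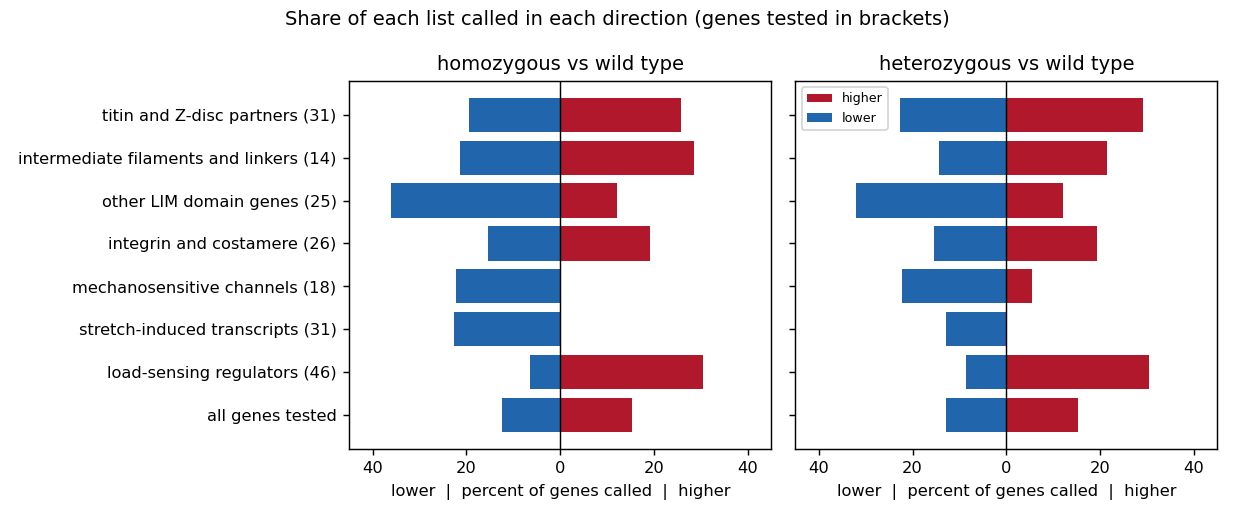
Percent of the tested genes called higher and lower in each of the 7 lists of load-sensing genes and among all genes tested, for homozygous and for heterozygous hearts against wild type. Stretch-induced targets have 0 higher calls in both comparisons, and the regulators have 14 higher calls in both.

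The genes most alike to each member were read from Pearson's r of log2 CPM over the 8 libraries, among 9252 genes with a mean of at least 10 CPM, as a description that shares libraries and depth. For Ankrd1 the nearest were Fas (0.931), Timm17a (0.922) and the member Csrp3 (0.911). For Csrp3 they included Gab2 (0.953) and the Z-disc gene Myoz2 (0.927). The nearest gene was Drap1 for Tcap (0.99), Svbp for Des (0.987), Mri1 for Itgb1bp2 (0.986), Wdr33 for Ankrd23 (0.98), Taf13 for Fhl1 (0.973), St3gal5 for Fhl2 (0.97) and Snw1 for Ankrd2 (0.935).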

How the data were processed

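Whole hearts were homogenised in Trizol and libraries made with the TruSeq kit and sequenced on an Illumina HiSeq instrument, per the labels' protocols. The submitters' processing notes name Trimmomatic 0.36, HISAT2, Subread, featureCounts, DESeq2 and mm10, and the deposited values are raw read counts per gene symbol for 8 libraries. No source used here gives the annotation, the strand setting or the treatment of multi-mapping reads. From these counts, genes were kept by edgeR's filterByExpr (minimum count 10), scaled by TMM and tested with edgeR 4.0.16 (robust quasi-likelihood F test, two-sided, limma 3.58.1, R 4.3.3) in 1 fit of all 8 libraries with a genotype term, and p-values were adjusted by the Benjamini-Hochberg method. Standard errors are the log2 fold change divided by the root of F. DESeq2 1.42.0 was among 24 alternatives. For the sex term, which the labels do not give, the hearts were split at the middle of the range of Xist log2 CPM. That rule splits the hearts whatever their sex. Gene properties came from GENCODE vM21, and the trend on transcript length, 3' untranslated length and GC content was a spline with 4 degrees of freedom for each of the 3 properties in each library, used as an offset for 13909 genes. With 2 wild type hearts the spread is estimated over all genotypes. The members, lists and tests were chosen with earlier results of these data known. Genes named are the members, Actn2, for each member the genes most alike in profile, and from each list genes among the 4 with the smallest p and partners of members; not all of these are described, and exceptions are stated.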

Additional observations from a re-analysis of the deposited data

How the results depend on the processing

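Values below are log2 fold changes unless called counts. Of 2625 results for single genes under the alternatives, 2282 kept direction and side of the threshold, 239 lost a call, 50 gained one and 54 turned sign. Members called in homozygous against wild type hearts (1) numbered 3 with at least 10 CPM in 2 libraries, 3 with DESeq2, 2 with the property offset, 2 with it and the replicate block, 2 with it and without heterozygous 1 and 0 with it and without wild type 2; leaving out 1 library gave 0 to 3. In heterozygous against wild type hearts (1) they numbered 3 with at least 10 CPM, 5 with DESeq2, 2 with limma-voom, 2 with a sex term, 0 with only the groups compared, 2 with the offset, 2 with the offset and replicate block, 2 with the offset and without heterozygous 1, and 2 without heterozygous 1 and wild type 2 together; leaving out 1 library gave 0 to 4. List genes called numbered 70 in homozygous hearts, and 41 with the offset, 36 with offset and replicate block, 17 with it and without wild type 2, and 44 with it and without heterozygous 1. In heterozygous hearts they numbered 68, and 33, 24, 13 and 24 in those fits, and leaving out 1 library gave 45 (wild type 2) to 87 (wild type 1). Homozygous against heterozygous hearts gave 0, but 1 without the low count filter, 1 with DESeq2 and 2 without heterozygous 1 and wild type 2 together. All genes called numbered 4182 in homozygous and 4218 in heterozygous hearts, and 1989 and 1839 with the offset, 2135 and 2358 without wild type 2, 2564 in homozygous hearts without homozygous 3 and 2668 in heterozygous hearts with only the groups compared.

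The labels number the replicates in each group, and do not say whether same-numbered hearts belong together. For deviations from the group mean, same-numbered homozygous and heterozygous hearts had r of 0.18, 0.14 and -0.02. Other pairs of these groups had r of -0.23 to 0.13. With wild type, r of same-numbered hearts was -0.01 to 0.02. Both wild type hearts deviate from their mean by about equal and opposite amounts, so these values say little. Pairing by number therefore cannot be decided from these values, and the main fit does not use it. With the replicate block 0 members were called in each comparison with wild type, and Ankrd1 was 0.051 in homozygous hearts (0.065 with offset and block).

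In homozygous against wild type hearts the sign of Ankrd1 turned with the replicate block, alone and with the offset, as given above. The other signs that turned in this comparison were those of Csrp3, Ttn and Trim54, all in fits with the offset. Csrp3 had 0.18 with the offset alone, 0.24 with offset and block, 0.15 with the offset and without wild type 2, and 0.18 with the offset and without heterozygous 1. Ttn had -0.15 with the offset alone, -0.18 with offset and block, and -0.16 with the offset and without heterozygous 1. Trim54 had 0.026 with the offset and without wild type 2. In heterozygous against wild type hearts they were Ankrd1 (-0.26 with limma-voom, -1.11 with the offset and without heterozygous 1, -0.95 without heterozygous 1 and wild type 2), Ankrd2 (-0.080 in that last fit), Csrp3 (-0.0059 with limma-voom, -0.019 with the offset and without heterozygous 1, -0.32 without both libraries), Fhl1 (-0.070 with the offset and without heterozygous 1), Trpv2 (0.085 with the offset and without wild type 2) and Nr4a1 (0.16 with offset and block). Ttn turned there only in fits with the offset, at -0.44 with the offset alone and -0.46 with offset and block. It had -0.22 with the offset and without wild type 2, and -0.49 with the offset and without heterozygous 1. Leaving out 1 library gave ranges of -1.10 to 0.87 for Ankrd1, -0.54 to 2.23 for Ankrd2, -0.48 to 0.42 for Csrp3 and -0.0074 to 0.68 for Fhl1. Homozygous against heterozygous hearts turned for Ankrd1 (0.011 with limma-voom, 0.89 with the offset and without heterozygous 1, 0.88 without both libraries), Ankrd23 (0.11 and 0.13 in these 2 fits), Csrp3 (0.20 and 0.22), Tcap (0.21 and 0.23) and Des (-0.0068 with total counts, -0.0024 with at least 10 CPM, -0.032 with a sex term, -0.026 with the offset, -0.017 with offset and block, -0.021 with the offset and without wild type 2). Leaving out 1 library there gave -1.11 to 0.88 for Ankrd1, -0.23 to 0.13 for Ankrd23, -0.71 to 0.22 for Csrp3, -0.30 to 0.23 for Tcap, -0.068 to 0.11 for Itgb1bp2 and -0.10 to 0.20 for Des. The cause was not tested. The alternatives that leave out heterozygous 1 with the offset, or together with wild type 2, were chosen after the data were seen.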
